A study of Homo sapiens with 13 samples.

Results

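The step from 4 h to 12 h of BMP4 treatment was followed in human embryonic stem cells (hESCs) with 2 of the 13 bulk RNA-seq libraries of the series, 1 library at each time. All 61541 human genes of the count table entered. Of these, 16310 averaged 1 CPM or more over both libraries (CPM, counts scaled to a library total of 1000000) and were compared. A gene was called higher or lower at a 2-fold or larger difference in CPM after adding 0.1 CPM to both values, and rose and fell refer to differences between libraries, not to a test. The cells were RUES2, an established hESC line, carrying a GFP::SMAD4 fusion, and were kept at low density in mTeSR1 medium with ROCK inhibitor (RI). At both times they had been given 100 ng/mL BMP4 and 5 µM IWP2, an inhibitor of Wnt secretion, with RI. The labels name this treatment for the 2 libraries at 0 h as well, which were read as the start. Further libraries of the same series were made at 20, 28 and 42 h, 1 at each time, all from total RNA after removal of ribosomal RNA. A separate dose response at 5 h, from poly(A)-selected RNA and another extraction kit, gave 1 library with the same BMP4, IWP2 and RI and no LDN-193189 (a BMP receptor inhibitor) and 1 of untreated cells in mTeSR. In bulk RNA, fewer cells of a type and less RNA per cell cannot be told apart.

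BMP ligands bind pairs of type I and type II serine/threonine kinase receptors, which phosphorylate SMAD1, SMAD5 and SMAD9. These bind SMAD4, enter the nucleus and switch on target genes such as the ID genes and the inhibitory SMADs, while secreted proteins such as NOG bind the ligand outside the cell. In hESCs a sustained BMP4 signal is known to lead away from pluripotency toward extraembryonic fates including amnion, and Nodal and Wnt signals steer cells toward primitive streak.

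The 4 h library held 45325864 counts and the 12 h library 55815183, so that 3 counts, taken as the floor, corresponded to 0.0662 and 0.0537 CPM. The 7 libraries of the time series ranged from 37957385 to 71333471 counts and the 6 of the dose response from 15600931 to 33989998. Pluripotency markers were present, with all 3 of POU5F1, SOX2 and NANOG at or above 1 CPM and a summed level of 1732 CPM at 4 h and 1847 CPM at 12 h. The 5 BMP response markers summed to 1702 and 2561 CPM, and the 6 amnion markers to 142 and 427 CPM. Of the 6 amnion markers 5 reached 1 CPM at each time. Most of their sum at 12 h was GATA3 (172 CPM) and TFAP2A (171 CPM). GATA3, TFAP2A, TFAP2C, ISL1 and HAND1 were above their 4 h levels at 12 h, whereas GABRP went from 1.43 to 0.860 CPM. Of the 3 primitive streak markers 1 reached 1 CPM at either time (sums of 2.47 and 3.35 CPM), of the 5 trophoblast markers 1 did (1.99 and 1.38 CPM), and none of the 2 endoderm, 4 fibroblast and endothelial or 1 blood markers did. Of 2 neural markers 1 reached it at 4 h and none at 12 h (1.57 and 0.985 CPM). The part of other cells in any difference was not tested.

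Because each time had 1 library, no test between 4 h and 12 h was possible, and each ratio is given with an exact 95% interval that covers counting error only. The spread between libraries of 1 condition was read from the 2 libraries at 0 h, compared at the same thresholds. Of the 16310 genes, 247 were higher at 12 h (1.51%) and 323 were lower (1.98%). Between the 0 h libraries, of 15621 genes, 134 were higher (0.858%) and 125 lower (0.8%) in replicate 2. The share of higher against lower genes depended on the scaling, since the 247 and 323 genes became 304 and 229 with TMM factors and 294 and 240 with DESeq2 size factors. Over all genes the SD of the log2 ratio was 0.42 for the step and 0.42 for the 0 h pair, so the spread across genes was no wider for the step. The 0 h libraries differed in depth, with 37957385 and 71333471 counts. Mitochondrial genes held 7.60% and 4.29% of their counts, against 4.23% at 4 h and 3.65% at 12 h. The part of these differences in the spread of the pair was not tested. Among genes averaging 10 CPM or more the SD was 0.31 for the step and 0.37 for the pair, and 102 of 10402 were higher at 12 h (0.981%) and 70 lower (0.673%), against 62 of 10066 (0.616%) and 17 (0.169%) in the 0 h pair. At 4-fold or more, 13 of the 10402 were higher (0.125%) and 2 lower (0.0192%), against 3 (0.0298%) and 1 (0.00993%) of 10066. Of the 102 higher genes, 94 were above both 0 h libraries at 12 h, 87 were higher still at 20 h and 2 had fallen under the 4 h level. Of the 70 lower genes, 58 were under both 0 h libraries at 12 h and 55 were lower still at 20 h. The 0 h libraries themselves differed by 2-fold or more for 7 of the 102 and 2 of the 70. One of the 7 was RPPH1, the RNA of ribonuclease P, named after its values were seen, which read 671 and 2845 CPM at 0 h, 1338 at 4 h, 2858 at 12 h, and 1864, 2821 and 3466 at 20, 28 and 42 h.

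**Figure D1:**
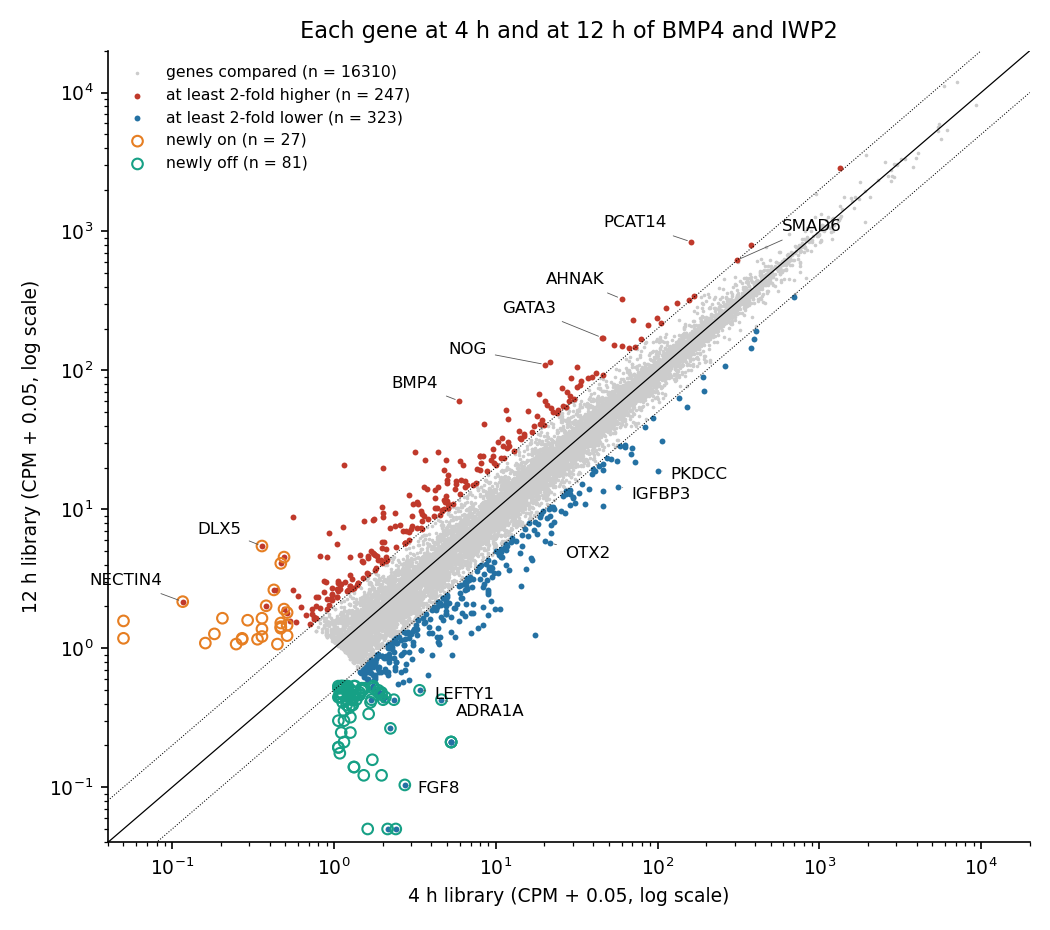
CPM of each of the 16310 compared genes and of the newly on and newly off genes in the 4 h library (horizontal, log scale) and the 12 h library (vertical, log scale), with 0.05 CPM added to each for drawing; dotted lines mark 2-fold. Most genes lie on the diagonal, BMP4 and DLX5 stand above it, and FGF8, ADRA1A and LEFTY1 stand far below it.

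Counts of higher and lower genes in this and the following lists stand beside 1.51% higher and 1.98% lower over all compared genes. Among secreted BMP ligands and antagonists, 3 of 13 compared genes were higher (BMP4, NOG and BMP7) and 1 was lower (BMP2). Their median log2 ratio was -0.17 against -0.04 over all compared genes.

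A promoter of BMP4, whose gene was among those that rose most, is shown. It was chosen after matches to the word marked below were seen, and the other BMP4 promoters held no match. Of 3 BMP4 promoters in the RefSeq table (GRCh38.p14, 250 bases before to 50 after a start), the one at chr14:53955001-53955300 on the minus strand is printed from 5′ to 3′, with each GGCGCC, a GC-rich word reported for SMAD1 and SMAD5 binding, in capitals.
BMP4: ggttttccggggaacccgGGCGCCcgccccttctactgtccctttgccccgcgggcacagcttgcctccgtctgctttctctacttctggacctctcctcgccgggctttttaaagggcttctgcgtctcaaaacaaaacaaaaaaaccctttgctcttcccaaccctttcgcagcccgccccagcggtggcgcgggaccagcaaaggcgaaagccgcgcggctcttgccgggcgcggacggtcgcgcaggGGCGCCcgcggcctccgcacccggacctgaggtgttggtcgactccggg

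BMP4 itself (ENSG00000125378, chr14:53949736-53958761) is the ligand that was added as protein to the medium. Its RNA read 4.53 and 5.09 CPM at 0 h, 5.89 at 4 h, 60.2 at 12 h, and 264, 324 and 279.6 at 20, 28 and 42 h, a step of 10.2-fold (95% interval 9.02 to 11.6). At 4 h it lay within 1 CPM of the higher 0 h library, so nearly all of its rise came after 4 h, and it rose on to 20 and 28 h. At 5 h in the dose response it was 16.1 CPM with BMP4 and 5.83 CPM untreated. ENSG00000287156, a lncRNA on the strand opposite BMP4, went from 0.441 to 4.48 CPM, 10.2-fold (95% interval 6.43 to 16.9). The counting was not stated to use strand, so reads of BMP4 and of this gene cannot be told apart, and 1 set of reads may stand behind both rows.

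NOG (noggin), a secreted antagonist that blocks BMP4 from its receptors, was already raised at 4 h and rose again. It read 0.395 and 0.393 CPM at 0 h, 20.2 at 4 h, 110.1 at 12 h, and 255, 235 and 149.8 at 20, 28 and 42 h, and the step was 5.45-fold (95% interval 5.08 to 5.84). BMP7, a related ligand, read 6.30 and 6.38 CPM at 0 h, 31.7 at 4 h, 106 at 12 h, and 155, 108 and 35.5 at 20, 28 and 42 h, a step of 3.34-fold (95% interval 3.15 to 3.54). Both thus differed from BMP4, which had hardly moved by 4 h. BMP2, another ligand of this family, went the other way: it read 13.8 and 15.2 CPM at 0 h, 6.001 at 4 h, 2.45 at 12 h, and 2.84, 3.96 and 3.81 at 20, 28 and 42 h and was 2.44-fold lower at 12 h (95% interval 1.98 to 3.02). BMP6, a further ligand, went from 3.22 to 2.85 CPM. The antagonists GREM1, CHRD and FST stayed within 2-fold over the step. GREM1 went from 27.9 to 19.6 CPM after 0.869 and 0.547 CPM at 0 h, CHRD (chordin) from 3.07 to 2.22 CPM and FST (follistatin) from 10.7 to 7.51 CPM. NOG, GREM1 and CHRD had all been above both 0 h libraries at 4 h, and of these NOG went on while GREM1 and CHRD were under their 4 h level at 12 h.

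**Figure D2:**
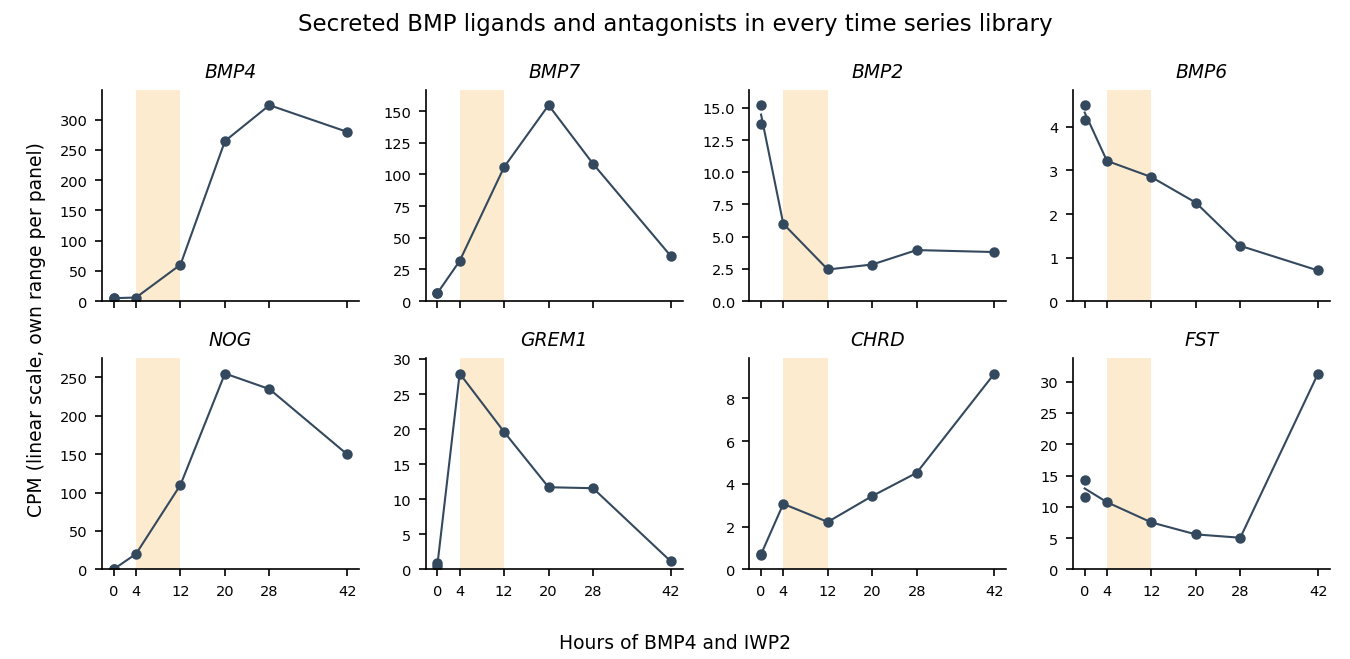
CPM (linear scale, each panel with its own range) of 8 secreted BMP ligands and antagonists in the 7 libraries of the time series against hours of treatment, 1 point a library, the line passing through the mean of the 0 h libraries and the step from 4 h to 12 h shaded. BMP4 stays at or under 5.89 CPM until 4 h and reaches 60.2 CPM at 12 h, and BMP2 falls below its 0 h level.

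Most intracellular targets stayed within 2-fold. Of 14 compared BMP targets and intracellular inhibitors, 2 were higher (MSX2 and SMAD6) and none lower, and the median log2 ratio of the 14 was 0.62. MSX2, a homeobox transcription factor and BMP target, read 0.474 and 0.589 CPM at 0 h, 21.6 at 4 h, 115 at 12 h, and 295, 354 and 789 at 20, 28 and 42 h, a step of 5.30-fold (95% interval 4.96 to 5.68). SMAD6, an inhibitory SMAD, read 6.59 and 7.78 CPM at 0 h, 308 at 4 h, 619.7 at 12 h, and 941, 672 and 708 at 20, 28 and 42 h and stood just past the threshold at 2.01-fold (95% interval 1.97 to 2.05). With the deposited FPKM values its log2 ratio was 0.97, just under the threshold. The 4 ID genes, inhibitors of helix-loop-helix transcription factors, were within 2-fold with ID1 at 942 to 1276 CPM, ID2 at 67.6 to 124 CPM, ID3 at 253 to 384 CPM and ID4 at 192 to 299 CPM. SMAD7, the other inhibitory SMAD, went from 132 to 157 CPM and BAMBI, a decoy receptor, from 240.3 to 393 CPM. All 6 were above their 4 h level, by less than the 2-fold that a call required.

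Genes of amnion and early surface ectoderm formed the list with the largest share of higher genes among lists with at least 3 compared genes. Of 21 compared 11 were higher, 1 was lower, and the median log2 ratio was 1.09. The lists were chosen with earlier results of these data known, so this rank only describes them. MSX2 and NR2F2 are in this list too. GATA3, a zinc finger factor of early extraembryonic and surface lineages, read 0.158 and 0.196 CPM at 0 h, 45.6 at 4 h, 172 at 12 h, and 270.3, 296 and 322 at 20, 28 and 42 h, 3.76-fold (95% interval 3.59 to 3.95). TFAP2A, an AP-2 family factor, ran close to it with 0.158 and 0.140 CPM at 0 h, 45.7 at 4 h, 171 at 12 h, and 312, 348 and 367 at 20, 28 and 42 h, 3.75-fold (95% interval 3.57 to 3.93). Both were close to 0 at the start, had been raised by 4 h and went on rising through 42 h. TBX3, a T-box repressor, went from 3.71 to 14.05 CPM and reached 120.5, 292 and 702 CPM at 20, 28 and 42 h. HAND1, a basic helix-loop-helix factor, went from 5.98 to 22.1 CPM and reached 297, 1036 and 2919 CPM at 20, 28 and 42 h. For HAND1 the rise of this step was small beside that which followed. ISL1, a LIM homeobox factor of amnion, was near its 0 h level (0.263 and 0.505 CPM) at 4 h and went from 0.397 to 2.56 CPM, then to 24.2, 74.2 and 137 CPM at 20, 28 and 42 h. DLX2 went from 0.507 to 2.56 CPM and DLX6 from 1.92 to 10.3 CPM, both distal-less homeobox factors. KRT8, a simple epithelial keratin, went from 378 to 804 CPM, with 0 h libraries at 277 and 473 CPM; it overlaps KRT18 on the other strand, which went from 204 to 356 CPM. GATA2 and TFAP2C stayed within 2-fold, at 99.3 to 167 CPM and 42.9 to 58.6 CPM. The only lower gene of the list was IGFBP3, described among the genes that turned back.

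A gene was called newly on when it was at most 0.5 CPM in both 0 h libraries and at 4 h and at least 1 CPM at 12 h. Of 42178 genes off at 0 h and 4 h, 27 were newly on (0.064%): 17 protein-coding genes, 7 lncRNAs and 3 pseudogenes. Their median level at 12 h was 1.42 CPM and 5 reached 2 CPM. Of the 27, 24 were at or above 1 CPM at 20 h, 18 at 28 h and 16 at 42 h, with 16 at all 3 times. In the BMP4 library of the dose response at 5 h, which the rule did not use, 3 of the 27 reached 1 CPM.

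DLX5 (ENSG00000105880, chr7:97020396-97024950), a distal-less homeobox factor and BMP target, had the highest CPM of the newly on genes at 12 h. It read 0.0263 and 0.0140 CPM at 0 h, 0.309 at 4 h, 5.39 at 12 h, and 29.9, 45.2 and 47.6 at 20, 28 and 42 h. There were 14 counts at 4 h and 301 at 12 h, a step of 17.5-fold (95% interval 10.2 to 32.3), and at 5 h it stood at 1.496 CPM with BMP4 and 0 CPM untreated. NR2F2 (COUP-TFII), an orphan nuclear receptor, read 0.211 and 0.308 CPM at 0 h, 0.419 at 4 h, 4.03 at 12 h, and 12.0, 17.7 and 12.8 at 20, 28 and 42 h, 9.62-fold (95% interval 6.02 to 16.3). NECTIN4, a cell adhesion protein of the nectin family expressed in placenta, had 3 counts at 4 h and 118 at 12 h. Its CPM read 0.0527 and 0.126 CPM at 0 h, 0.0662 at 4 h, 2.11 at 12 h, and 9.47, 33.5 and 77.4 at 20, 28 and 42 h, and the ratio was 31.9-fold (95% interval 10.7 to 157), wide because of the few counts at 4 h. Its promoter (chr1:161089509-161089808, minus strand, printed as for BMP4) holds the GC-rich word once and is shown as that of a newly on gene, chosen after the match was seen.
NECTIN4: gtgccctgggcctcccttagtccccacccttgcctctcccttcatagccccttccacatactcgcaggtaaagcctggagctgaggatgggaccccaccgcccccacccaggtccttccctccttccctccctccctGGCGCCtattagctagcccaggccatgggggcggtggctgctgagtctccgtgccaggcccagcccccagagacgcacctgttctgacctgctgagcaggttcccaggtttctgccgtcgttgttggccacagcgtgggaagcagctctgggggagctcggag

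DLX5, NR2F2 and NECTIN4 all went on rising at 20 and 28 h, and NECTIN4 and DLX5 also at 42 h. RASSF9, a Ras association domain protein, went from 0.375 to 2.58 CPM and then to 5.74, 7.92 and 5.67 CPM at 20, 28 and 42 h. BIN2, of the BAR domain adaptors, went from 0.154 to 1.59 CPM and reached 3.89, 5.15 and 1.68 CPM at 20, 28 and 42 h. The lncRNA DIO3OS, read from the strand opposite DIO3, went from 0.309 to 1.59 CPM and reached 13.4, 15.4 and 69.1 CPM at 20, 28 and 42 h, and TMEM132E-DT, a divergent lncRNA, went from 0.463 to 1.76 CPM and reached 4.75, 6.43 and 5.44 CPM at 20, 28 and 42 h.

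Others were on only for a while. HOXD1, an anterior HOX gene, read 0 and 0.0421 CPM at 0 h, 0.331 at 4 h, 1.97 at 12 h, and 0.908, 0.220 and 0.0980 at 20, 28 and 42 h, 5.96-fold (95% interval 3.46 to 11.001), and at 5 h stood at 1.25 CPM with BMP4 and 0 CPM untreated. It was the only one of 39 HOX genes in the table that averaged 1 CPM or more over both libraries, and it was back at 0.22 CPM by 28 h. RD3, a retinal guanylate cyclase regulator, went from 0.441 to 1.86 CPM and then to 1.17, 0.846 and 0.0980 CPM at 20, 28 and 42 h, and SP9, a zinc finger factor, from 0.243 to 1.54 CPM and then to 2.33, 0.880 and 0.114 CPM at 20, 28 and 42 h. For the lncRNA ENSG00000259952, opposite MAZ, there were 0 counts at 4 h and 85 at 12 h, which put it at least 23.0-fold above the floor of 3 counts. Its 0 h libraries read 0 and 0.322 CPM, and at 5 h it stood at 3.65 CPM with BMP4 and 2.31 CPM untreated. EN1, an engrailed homeobox factor, just missed the rule with 0.507 CPM at 4 h and is named after its values were seen. It read 0.0790 and 0 CPM at 0 h, 0.507 at 4 h, 8.76 at 12 h, and 38.1, 36.8 and 16.9 at 20, 28 and 42 h, 17.3-fold (95% interval 11.4 to 27.5).

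**Figure D3:**
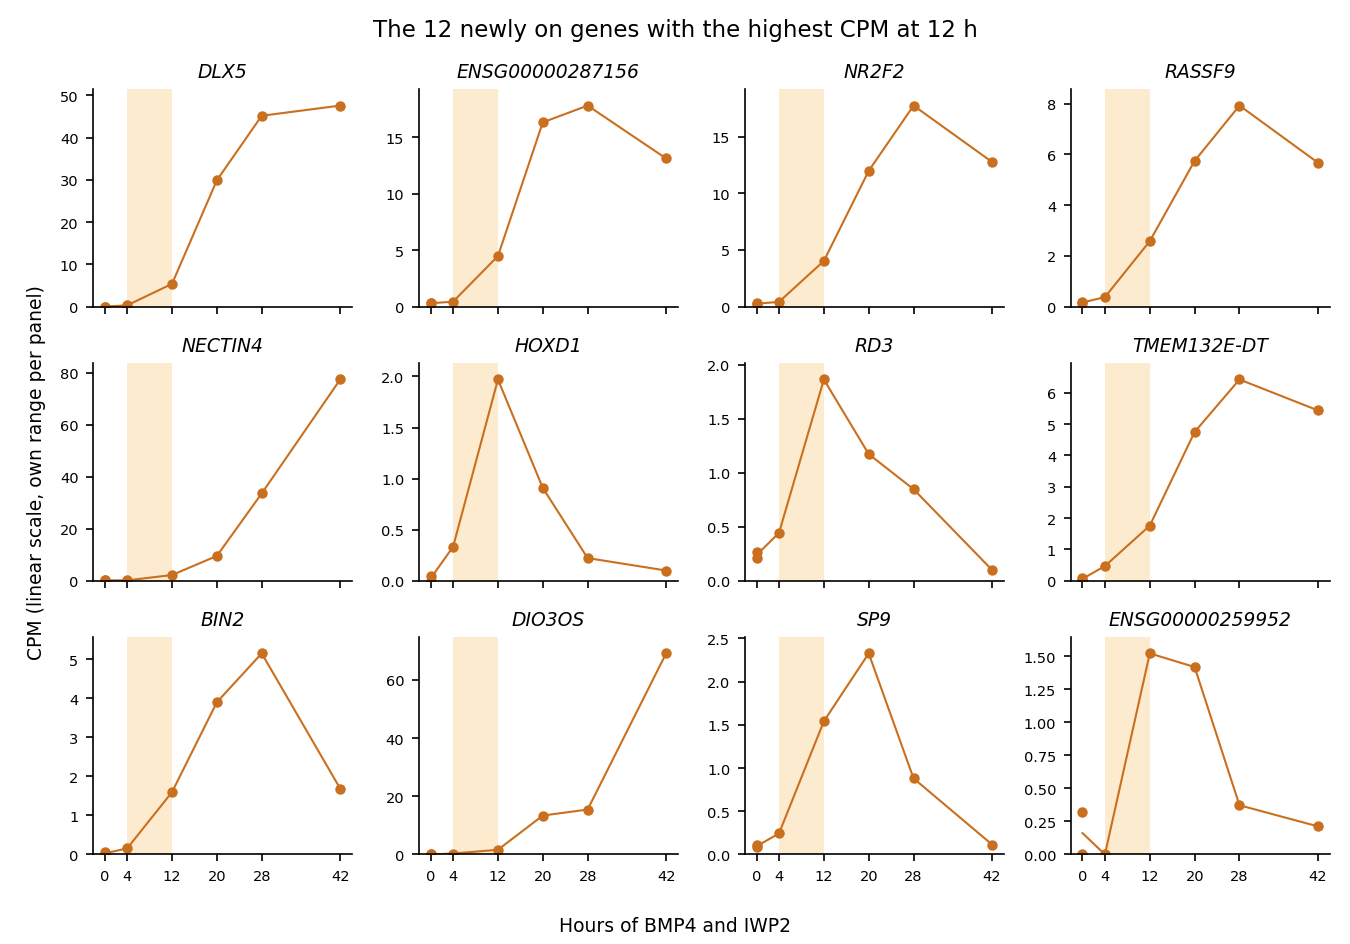
CPM of the 12 newly on genes with the highest level at 12 h, in each of the 7 libraries of the time series against hours of treatment, 1 panel a gene with its own linear scale and the step from 4 h to 12 h shaded. All 12 are under 0.5 CPM until 4 h, and HOXD1, RD3 and SP9 come down again after 12 or 20 h while DLX5, NR2F2 and NECTIN4 stay up.

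Among the other genes averaging 10 CPM or more, large rises belonged to RBBP8NL, from 1.96 to 19.9 CPM, and SEZ6L, a transmembrane protein studied in neurons, from 3.13 to 25.6 CPM. AHNAK, a very large scaffold protein under the plasma membrane, read 14.1 and 13.5 CPM at 0 h, 59.9 at 4 h, 328 at 12 h, and 907, 1506 and 2416 at 20, 28 and 42 h, 5.48-fold (95% interval 5.26 to 5.70). The lncRNA PCAT14 read 1.11 and 0.589 CPM at 0 h, 162 at 4 h, 841 at 12 h, and 1131, 754 and 134 at 20, 28 and 42 h, 5.20-fold (95% interval 5.07 to 5.33). PCAT14 thus rose at both steps and was under its 4 h level at 42 h, whereas AHNAK rose throughout. NTS (neurotensin) had not risen by 4 h: it read 4.32 and 3.21 CPM at 0 h, 3.60 at 4 h, 22.4 at 12 h, and 67.7, 110.2 and 50.6 at 20, 28 and 42 h, and stood at 18.8 CPM with BMP4 and 5.32 CPM untreated at 5 h. Of 14 compared junction genes 2 were higher, the tight junction claudins CLDN10, from 8.41 to 41.0 CPM, and CLDN4, from 11.5 to 51.5 CPM, and none was lower. The epithelial cadherin CDH1 went from 287 to 346 CPM and the neural cadherin CDH2 from 28.3 to 15.7 CPM, both within 2-fold. EPN3, an endocytic adaptor, went from 4.88 to 22.6 CPM.

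Of 13 compared genes of the Nodal and activin pathway 3 were lower and 1 higher, with a median log2 ratio of -0.47. LEFTY1 (ENSG00000243709, chr1:225886282-225911382), a secreted Nodal inhibitor that is itself a Nodal target, read 15.1 and 20.1 CPM at 0 h, 3.33 at 4 h, 0.448 at 12 h, and 0.198, 0.322 and 0.0817 at 20, 28 and 42 h. It was 7.44-fold lower at 12 h than at 4 h (95% interval 4.85 to 11.9) and counted as newly off. LEFTY2, its neighbour with a similar sequence, so that reads may be split between them, read 6.22 and 10.5 CPM at 0 h, 8.32 at 4 h, 1.42 at 12 h, and 0.462, 0.186 and 0.0980 at 20, 28 and 42 h, 5.88-fold lower (95% interval 4.60 to 7.59). LEFTY1 had fallen already by 4 h, whereas LEFTY2 was still in its 0 h range at that time. NODAL, the ligand, went from 3.99 to 1.24 CPM, 3.23-fold lower (95% interval 2.44 to 4.33), and its coreceptor TDGF1 (CRIPTO) from 554 to 376 CPM, within 2-fold. GDF3, a ligand of the same family, was the higher gene, from 7.21 to 14.9 CPM.

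Of 16 compared FGF ligands and feedback genes of ERK signalling 3 were lower, all of them ligands, and 2 were higher, both ERK targets, with a median log2 ratio of 0.03. FGF8 (ENSG00000107831, chr10:101770109-101780371) read 2.61 and 2.86 CPM at 0 h, 2.69 at 4 h, 0.0537 at 12 h, and 0, 0.0169 and 0.0163 at 20, 28 and 42 h. There were 122 counts at 4 h and 3 at 12 h, a ratio of 50.1-fold (95% interval 16.7 to 246) for 4 h over 12 h, and at 5 h it read 0.174 CPM with BMP4 and 1.79 CPM untreated. At 4 h it was thus within its 0 h range, and from 12 h on it was at or under the floor. FGF4 read 1.61 and 1.82 CPM at 0 h, 19.0 at 4 h, 9.17 at 12 h, and 2.87, 0.863 and 0.0817 at 20, 28 and 42 h, 2.07-fold lower over the step (95% interval 1.86 to 2.32), and FGF19 10.9 and 10.1 CPM at 0 h, 6.02 at 4 h, 2.81 at 12 h, and 1.22, 0.829 and 0.327 at 20, 28 and 42 h, 2.14-fold lower (95% interval 1.75 to 2.62). Of these, FGF4 alone had been raised at 4 h. DUSP4, a MAP kinase phosphatase, went from 4.94 to 15.5 CPM and ETV5, an ETS factor, from 14.9 to 33.9 CPM. FGF4 and FGF19 passed the 2-fold threshold narrowly and came under it with TMM factors (log2 ratios of -0.94 and -0.97). Of the 9 compared Wnt target genes 1 was lower, AXIN2, a feedback inhibitor of the Wnt pathway, at 65.4 and 62.6 CPM at 0 h, 22.9 at 4 h, 8.08 at 12 h, and 10.2, 10.8 and 8.37 at 20, 28 and 42 h, 2.84-fold lower (95% interval 2.54 to 3.18). AXIN2 had fallen already by 4 h and did not fall on after 12 h.

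A gene was called newly off when it was at least 1 CPM at 4 h and at most 0.5 CPM at 12 h. Of 16482 genes at or above 1 CPM at 4 h, 81 were newly off (0.491%). Between the 0 h libraries, 55 of 15753 genes at or above 1 CPM in replicate 1 were at most 0.5 CPM in replicate 2 (0.349%), and the share of the step stood not far above it. The 81 held 38 protein-coding genes, 28 lncRNAs and 2 mitochondrial ribosomal RNAs among others. Their median was 1.26 CPM at 4 h, the highest was 5.25 CPM, and 11 were at or above 2 CPM. In the later libraries 59, 58 and 66 of the 81 were at most 0.5 CPM at 20, 28 and 42 h, and 47 were so at all 3. At 0 h 29 had been at or above 1 CPM in both libraries and 14 at most 0.5 CPM in both. A part of the newly off rows thus read as on at 4 h but not at 0 h. The 0 h libraries differed by 2-fold or more for 13 of the 81.

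FGF8, LEFTY1 and ADRA1A were among the newly off genes with the highest CPM at 4 h. CYP26A1, the enzyme that degrades retinoic acid, read 4.64 and 4.96 CPM at 0 h, 2.18 at 4 h, 0.215 at 12 h, and 0.0825, 2.13 and 117 at 20, 28 and 42 h. It was 10.2-fold lower at 12 h (95% interval 5.56 to 20.3), was near the floor at 20 h and came back strongly by 42 h. Over all compared genes 1.98% were lower and 1.51% higher. Of 11 compared genes of retinoid metabolism and response 3 were lower and none higher, with a median log2 ratio of -0.45. The others were LRAT, which esterifies retinol, at 45.0 and 38.1 CPM at 0 h, 16.6 at 4 h, 4.26 at 12 h, and 1.14, 2.45 and 0.523 at 20, 28 and 42 h, and ALDH1A3, which makes retinoic acid, from 2.34 to 0.645 CPM. The 3 lower genes thus encode enzymes for making, storing and degrading the ligand, while the receptors RARA, from 27.2 to 17.8 CPM, and RARG, from 65.2 to 73.0 CPM, stayed within 2-fold. KIF19, a kinesin, went from 2.29 to 0.376 CPM, and the lncRNA MIR1-1HG-AS1 from 1.92 to 0.430 CPM. LHX5, a LIM homeobox factor of the anterior brain, LINC01844 and HES3, a HES family repressor, are named after their values were seen. LHX5 went from 1.68 to 0.107 CPM and LINC01844 from 1.92 to 0.0717 CPM. HES3, which stayed above the level for newly off genes, read 34.6 and 40.9 CPM at 0 h, 17.4 at 4 h, 1.20 at 12 h, and 0.165, 0.0677 and 0 at 20, 28 and 42 h, 14.5-fold lower over the step (95% interval 11.3 to 18.9), and at 5 h 1.29 CPM with BMP4 and 24.5 CPM untreated.

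Other newly off rows had levels that also varied between libraries of 1 condition. CENPVL1 had 107 counts at 4 h and 0 at 12 h, at least 43.9-fold lower against the floor, but its 0 h libraries read 0 and 2.57 CPM and it has near-identical copies, so the reads may be split differently in each library. FAM187A had 95 counts at 4 h and 0 at 12 h, at least 39.0-fold lower, with 1.26 and 0 CPM at 0 h, and shares its locus with CCDC103. ENSG00000272921, from 2.03 to 0.394 CPM, lies across DYRK4 and NDUFA9 on the same strand and shares reads with them in the same way. The lncRNA rows ENSG00000280614, ENSG00000280800 and ENSG00000281181 carried identical counts in these libraries, 238 at 4 h and 9 at 12 h, and so count as 1 measurement. They read 11.8 and 2.45 CPM at 0 h, 5.25 at 4 h, 0.161 at 12 h, and 20.9, 0 and 0.0327 at 20, 28 and 42 h, so that the libraries of 0 h also stood apart from each other.

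Of the genes averaging 10 CPM or more, PKDCC (ENSG00000162878, chr2:42048021-42058517), a secreted tyrosine kinase, was the most reduced. It read 75.5 and 98.6 CPM at 0 h, 100.4 at 4 h, 18.9 at 12 h, and 48.9, 498 and 1388 at 20, 28 and 42 h, 5.30-fold lower over the step (95% interval 4.96 to 5.67). The fall was passing, since 28 h and 42 h lay far above 0 h. In the dose response PKDCC was already lower at 5 h, with 39.4 CPM with BMP4 and 157 CPM untreated. Metallothioneins are small proteins that bind zinc and copper. Of 10 genes of the MT1 and MT2 groups that were looked up, 7 were compared, and of these 4 were lower (MT1G, MT1E, MT1X and MT1H), 3 within 2-fold (MT2A, MT1F and MT1M) and none higher. MT1G read 107 and 114 CPM at 0 h, 46.2 at 4 h, 10.6 at 12 h, and 1.42, 0.457 and 0.0980 at 20, 28 and 42 h and MT1E 76.7 and 81.9 CPM at 0 h, 46.1 at 4 h, 13.5 at 12 h, and 2.86, 0.745 and 0.180 at 20, 28 and 42 h, MT1X went from 37.6 to 13.9 CPM and MT2A from 93.3 to 54.8 CPM. Apart from MT1G and MT1E these genes are named after their values were seen, and they are near copies of each other. Of 24 compared pluripotency genes 3 were higher and 3 lower, with a median log2 ratio of -0.13. OTX2, a homeobox factor of the epiblast and the anterior brain, read 71.8 and 76.3 CPM at 0 h, 21.6 at 4 h, 5.68 at 12 h, and 1.07, 0.592 and 0.686 at 20, 28 and 42 h, 3.81-fold lower (95% interval 3.35 to 4.33), and PRDM14, a PR domain repressor, 53.7 and 63.9 CPM at 0 h, 20.0 at 4 h, 5.82 at 12 h, and 2.52, 3.55 and 0.196 at 20, 28 and 42 h. USP44, a deubiquitinase, went from 136 to 62.9 CPM. POU5F1 went from 1342 to 1527 CPM, SOX2 from 242 to 222 CPM and NANOG from 148 to 97.5 CPM, all within 2-fold, while DNMT3B, a DNA methyltransferase, went from 1919 to 1163 CPM. At 0 h POU5F1 read 1003 and 1721 CPM, SOX2 389 and 375 CPM and NANOG 146 and 116 CPM. The core pluripotency factors thus stood within 2-fold of their 4 h levels. OTX2 and PRDM14 were lower by more than 2-fold in both intervals up to 12 h. SOX2 was lower by less than 2-fold in each, and over the step by only 1.09-fold, a log2 ratio of -0.12 against a median of -0.04 over all compared genes. NANOG was under both 0 h libraries at 12 h, and POU5F1 lay between them. The higher ones were TFCP2L1, a factor of naive pluripotency, from 9.58 to 24.0 CPM, FOXD3 and GDF3. AK4, a mitochondrial adenylate kinase, went from 107 to 30.8 CPM and THBS2, a matrix protein, from 72.1 to 21.8 CPM. LMO7, FHOD3 and KCNN2 complete the 12 largest falls, with log2 ratios of -1.86, -1.70 and -1.68.

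Genes that had been raised early and turned back were drawn from 698 genes that were higher at 4 h than in both 0 h libraries. By 12 h 78 of the 698 were higher again, 571 were within 2-fold of 4 h and 49 were lower (7.02%). The 4 h library enters both steps, and a high reading in it raises the first ratio and lowers the second, so this share cannot be read against the 1.98% over all genes. The 20 h library did not enter the rule but was read against the same 4 h value, so its count is no independent support either: 44 of the 49 were at least 2-fold under their 4 h level at 20 h. At 42 h 5 were above it. At 12 h 31 of the 49 were still above both 0 h libraries, 12 lay between them and 6 under both. The 49 held 39 protein-coding genes, 7 lncRNAs and 3 pseudogenes, and 15 were at or above 10 CPM at 4 h.

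The 5 h libraries gave a further reading outside the rule. There, 894 of 14893 genes were higher with BMP4 than without (6%) and 326 were lower (2.19%). Of the 49 genes that turned back 28 could be compared at 5 h and 9 of these were higher (32.1%), against 374 of 480 (77.9%) of the other early raised genes. The median log2 ratio was 0.55 for the former and 1.63 for the latter. The 5 h experiment differed from the time series in hours of treatment, in RNA selection and in extraction kit, which cannot be told apart, and the difference between these shares was not tested. The transcripts of the 49 had a median GC content of 59.0%, against 55.1% for the other early raised genes and 48.5% over all compared genes. The part of GC content in the difference was not tested.

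ADRA1A, an alpha-1 adrenergic receptor, had the largest fall and was the only gene both turned back and newly off. It read 1.21 and 1.04 CPM at 0 h, 4.57 at 4 h, 0.376 at 12 h, and 0.132, 0.118 and 0.0163 at 20, 28 and 42 h, 12.1-fold lower over the step (95% interval 7.73 to 20.0), and at 5 h 1.079 CPM with BMP4 and 1.09 CPM untreated. ZNF536, a zinc finger repressor studied in neurons, read 0 and 0.112 CPM at 0 h, 5.32 at 4 h, 0.842 at 12 h, and 0.248, 0.135 and 0.0817 at 20, 28 and 42 h, 6.31-fold lower (95% interval 4.60 to 8.83). LMX1B, a LIM homeobox factor, read 0.448 and 0.435 CPM at 0 h, 5.52 at 4 h, 1.16 at 12 h, and 0.957, 1.13 and 0.425 at 20, 28 and 42 h, 4.74-fold lower (95% interval 3.59 to 6.32). In ADRA1A the 12 h value lay under both 0 h libraries, in ZNF536 and LMX1B above both. FOXI2, a forkhead factor, went from 3.77 to 0.591 CPM and ELFN1, a postsynaptic transmembrane protein, read 3.98 and 3.04 CPM at 0 h, 14.2 at 4 h, 2.78 at 12 h, and 3.45, 2.28 and 0.523 at 20, 28 and 42 h. Its relative ELFN2 went from 6.18 to 1.74 CPM, and the potassium channel genes KCNF1 and KCNJ4 from 7.19 to 2.02 CPM and from 5.23 to 1.63 CPM. C1QL3, a secreted synaptic protein, went from 6.53 to 2.04 CPM, and ADGRA1, an adhesion receptor, from 3.40 to 0.914 CPM. Of the 12 largest falls, all but IGFBP3 were under 1 CPM at 42 h. IGFBP3, a secreted binding protein of insulin-like growth factors, read 12.5 and 15.7 CPM at 0 h, 57.3 at 4 h, 14.5 at 12 h, and 10.4, 49.7 and 2085 at 20, 28 and 42 h, 3.97-fold lower over the step (95% interval 3.66 to 4.30), and at 5 h 37.4 CPM with BMP4 and 15.3 CPM untreated. IGFBP3 was back in its 0 h range at 12 h and rose steeply between 28 and 42 h.

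**Figure D4:**
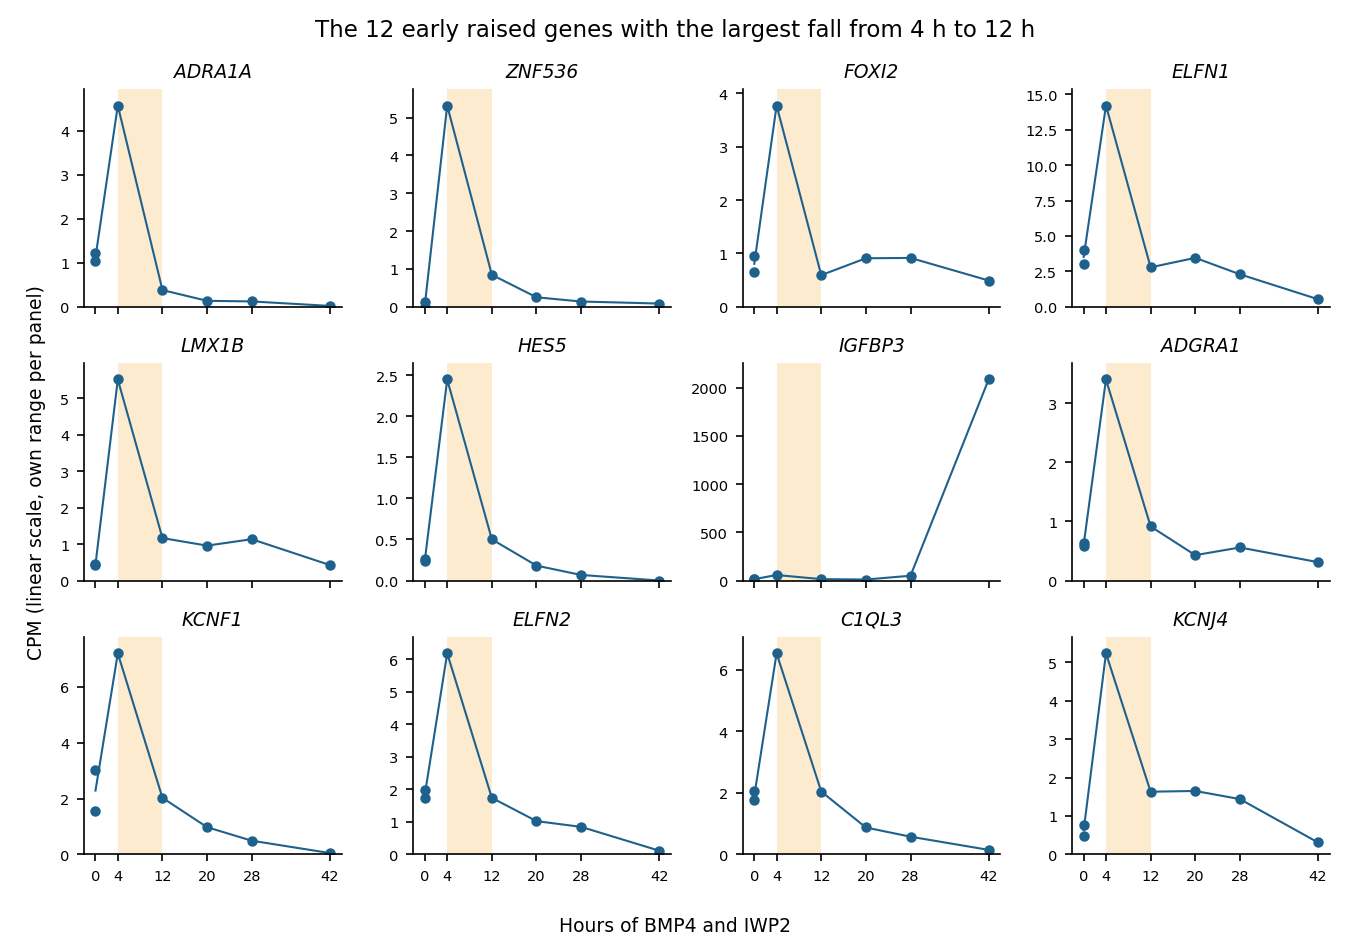
CPM of the 12 early raised genes with the largest fall from 4 h to 12 h, in each of the 7 libraries of the time series against hours of treatment, 1 panel a gene with its own linear scale and the step shaded. Each peaks at 4 h among the first 3 times, and IGFBP3 rises again to 2085 CPM at 42 h.

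Of 15 compared Notch pathway genes, ligands, receptors and the HES and HEY targets, 4 were lower and none higher, with a median log2 ratio of -0.16. HES3, which was lower and is described with the newly off genes, was not a member of this list and is not in these counts. HES5, a helix-loop-helix repressor induced by Notch, read 0.237 and 0.266 CPM at 0 h, 2.45 at 4 h, 0.502 at 12 h, and 0.182, 0.0677 and 0 at 20, 28 and 42 h, 4.88-fold lower over the step (95% interval 3.20 to 7.68). The HES5 promoter (chr1:2530214-2530513, minus strand) holds the GC-rich word 3 times and is shown as that of a gene that turned back, chosen after the matches were seen.
HES5: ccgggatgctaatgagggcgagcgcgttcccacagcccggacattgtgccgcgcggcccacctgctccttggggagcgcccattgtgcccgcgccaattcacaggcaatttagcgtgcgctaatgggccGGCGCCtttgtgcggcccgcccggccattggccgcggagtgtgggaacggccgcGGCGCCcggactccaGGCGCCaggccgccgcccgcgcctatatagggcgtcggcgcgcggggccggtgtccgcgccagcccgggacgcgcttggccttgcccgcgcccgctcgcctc

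JAG2, a Notch ligand, read 6.56 and 8.52 CPM at 0 h, 22.6 at 4 h, 10.3 at 12 h, and 6.80, 5.96 and 4.30 at 20, 28 and 42 h, 2.20-fold lower (95% interval 1.98 to 2.44). HEYL went from 5.56 to 1.899 CPM and DLL3, an atypical ligand, from 2.76 to 1.24 CPM. Of the 4, HES5 and JAG2 were among the genes that turned back. Other genes of the list did not follow: HES1 went from 51.6 to 58.5 CPM, the ligand JAG1 from 36.2 to 55.3 CPM and HEY1 from 18.5 to 31.1 CPM, all within 2-fold and above their 4 h levels.

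The reverse pattern held fewer genes. Of 90 genes lower at 4 h than in both 0 h libraries, 24 were lower again at 12 h, 60 within 2-fold and 6 were higher (6.67%). Here too the 4 h library enters both steps, and a low reading in it lowers the first ratio and raises the second. The share of 6.67% therefore cannot be read against the 1.51% over all genes. FOXD3, a forkhead factor of pluripotent cells and neural crest, read 58.0 and 79.5 CPM at 0 h, 12.0 at 4 h, 28.6 at 12 h, and 18.6, 3.69 and 0.490 at 20, 28 and 42 h, 2.39-fold (95% interval 2.17 to 2.64). PCDH18, a protocadherin, read 99.9 and 78.9 CPM at 0 h, 37.0 at 4 h, 88.1 at 12 h, and 106, 86.6 and 35.4 at 20, 28 and 42 h, 2.38-fold (95% interval 2.25 to 2.52), and IRX2, an Iroquois homeobox factor, 95.001 and 94.2 CPM at 0 h, 14.01 at 4 h, 32.8 at 12 h, and 103, 122 and 56.0 at 20, 28 and 42 h, 2.34-fold (95% interval 2.14 to 2.56). PCDH18 was back between its 0 h libraries at 12 h and IRX2 was above both at 20 h, whereas FOXD3 did not reach its 0 h level and fell again. In the dose response at 5 h PCDH18 read 52.6 CPM with BMP4 and 47.8 CPM untreated, and so was not lower there. FOXD3 read 26.2 and 35.6 CPM, within 2-fold, and IRX2 12.0 and 45.6 CPM. MBNL2, a splicing regulator, went from 0.441 to 1.11 CPM but had a log2 ratio of 0.10 in the FPKM table. RNASEK-C17orf49 and ENSG00000288534, the remaining ones, are readthrough genes that share reads with their neighbours.

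In the other lists few genes differed. Of 21 compared immediate early genes 1 was higher, BTG2, an antiproliferative gene induced by p53 among others, from 4.19 to 13.8 CPM, and none was lower, with a median log2 ratio of 0.38. BTG2 was also the only 1 of 15 compared p53 targets to differ (median -0.08). Of 5 compared neural and anterior ectoderm genes 1 was lower, HESX1, a homeobox repressor of the forebrain, from 2.76 to 0.717 CPM. None of 6 primitive streak genes (median 0.37), 3 trophoblast genes (-0.49), 13 genes of the integrated stress response (0.07), 15 mitotic genes (0.02) or 14 genes of cholesterol synthesis (0.30) passed 2-fold. Among the cholesterol genes INSIG1, which retains the sterol sensor in the endoplasmic reticulum, stood at 222 to 282 CPM. All 14 of them had a log2 ratio above 0, as did 42.2% of all compared genes, and none passed the threshold. Among the primitive streak genes EOMES, a T-box factor, went from 1.39 to 2.72 CPM, and its log2 ratio of 0.92 became 1.01 with TMM factors, just past the threshold.

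**Figure D5:**
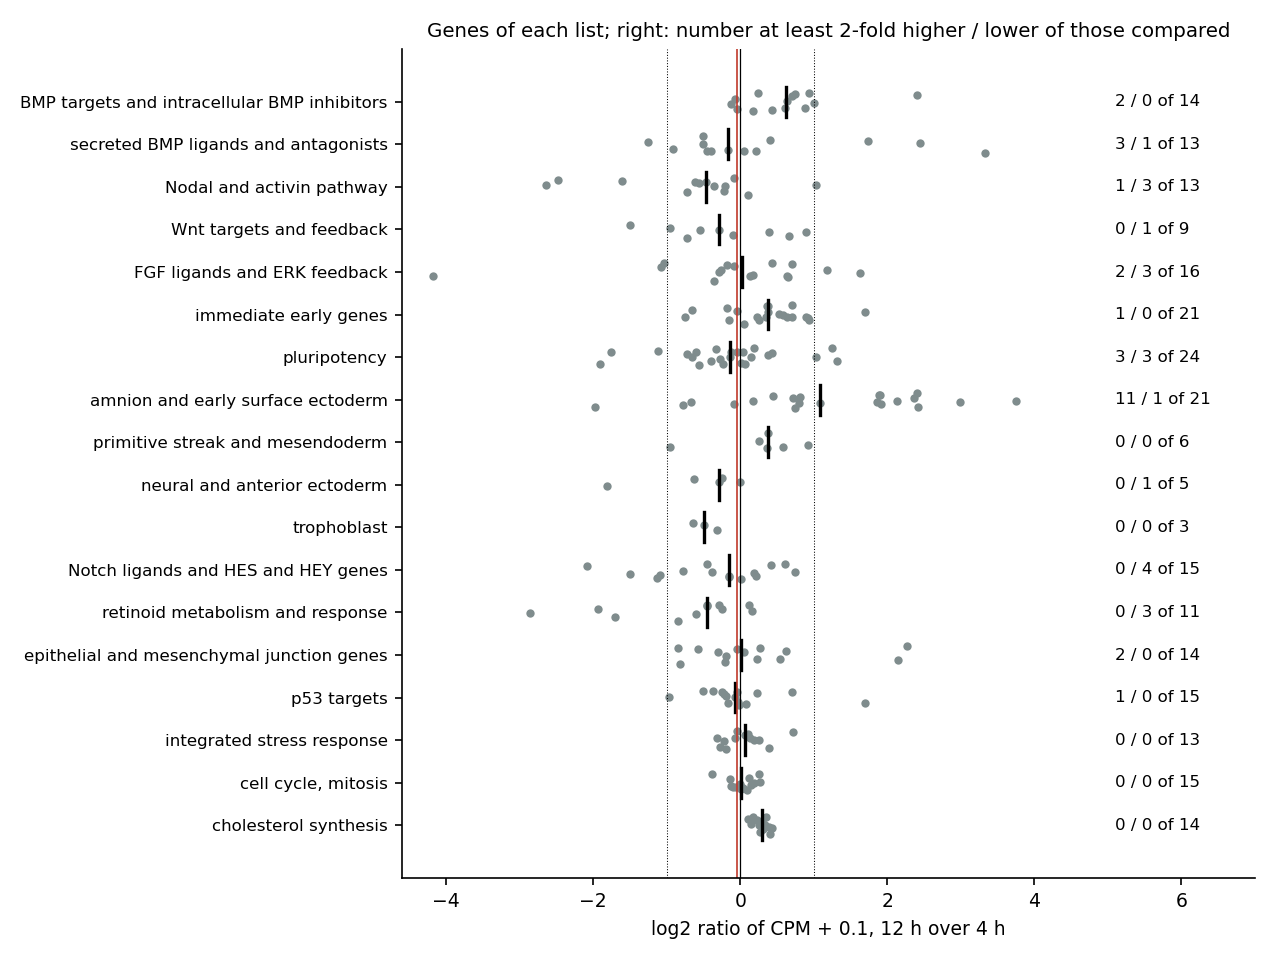
log2 ratio of CPM + 0.1 at 12 h over 4 h (horizontal) for each compared gene of the lists with at least 3 compared genes (rows), with the median as a black bar, the median over all compared genes as a red line and dotted lines at 2-fold. Among these lists, which were chosen with earlier results of these data known, the amnion and surface ectoderm genes have the highest median, 1.09. The mitotic, stress response and cholesterol genes stay inside 2-fold.

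Promoters were set beside these classes to show the sequence in front of genes that moved together. By Entrez gene identifier, 11455 of the 16310 genes had at least 1 in the table. The word GGCGCC, marked in the promoters printed above, was searched and reads the same on both strands. It was found 2 times in the printed BMP4 promoter and in neither of the other 2 BMP4 promoters, and the 3 promoters printed were chosen after the matches were seen. It occurred in 29.0% of the 16757 promoters of compared genes and in 19.2% of all 35116 promoters. The share was 26.7% of 251 promoters of genes higher at 12 h, 21.2% of 293 of genes lower at 12 h, 24.4% of 45 of genes that turned back and 38.0% of 560 of the other early raised genes. Of 12 promoters of newly on genes 4 held it and of 36 of newly off genes 6. The median GC content of the promoters was 65.3% for genes that turned back and 68.0% for the other early raised genes, against 65.0% for those of compared genes and 65.0% for those of lower genes, and the part of base composition in these shares was not tested. The word TGACTCA of AP-1, the palindromic word GCCNNNGGC of TFAP2 factors and the word AGATAA of GATA factors, each taken on either strand, were found in 5.18%, 30.3% and 7.97% of the promoters of higher genes and in 3.38%, 30.9% and 5.88% of those of all compared genes. A match says only that these letters are present.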

How the data were processed

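The time series and the dose response were sequenced as bulk RNA. The authors extracted the time-series RNA with the RNAqueous micro kit, removed ribosomal RNA, used STAR 2.7.8a for mapping to GRCh38 and RSEM 1.3.3 for gene-level estimates (versions per the submitters' processing notes), and the deposited estimated counts are whole numbers, not scaled for depth. The authors' deposited FPKM values, normalized for gene length and depth, served as an alternative only. Of 61546 features, 5 that are no human gene, the GFP sequence among them, were left out of the gene sets. Coordinates are of GRCh38, GENCODE release 44, which held 61369 of the 61541 identifiers.

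CPM was the count divided by the column total and scaled to 1000000. Log2 ratios used 0.1 CPM added to both values, and 1 CPM as the minimum mean. On meant at least 1 CPM and off at most 0.5 CPM. Early raised genes were at least 2-fold above both 0 h libraries at 4 h, and turned back when at least 2-fold lower at 12 h than at 4 h. Early lowered genes mirrored this. Intervals of a ratio came from the exact binomial (Clopper-Pearson) limits at 95% of the counts of both libraries, and cover counting error only, as does the floor of 3 counts. No p-value was computed, since 4 h and 12 h had 1 library each. At 0 h 2 libraries were compared as a pair, and nothing in the sources used here says whether they were separate cultures.

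The gene sets and lists were chosen with earlier results of these data known. Genes named were list members, the 12 newly on genes with the highest CPM at 12 h, the 12 newly off genes with the highest CPM at 4 h, the 12 largest falls among genes that turned back, the 8 largest rises among those that recovered (6 were found) and the 12 largest log2 ratios each way among genes averaging 10 CPM or more, of protein-coding or lncRNA type. Others are marked where they appear. Some genes that meet this rule or belong to the lists are not reported here, and were left out of the lists. The levels of LEFTY1 and LEFTY2, of keratins, metallothioneins and POU5F1, which have near copies, are uncertain.

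The calls of higher, lower and turned back genes were tested on simulated data, with changes planted in genes well above the minimum level. The newly on, newly off and recovered classes were not tested in this way. Alternatives were TMM (edgeR 4.0.16) and DESeq2 1.42.0 size factors, FPKM, totals without mitochondrial genes, the minimum, the pseudocount, the fold threshold, the on and off levels, each 0 h library left out, and another definition of turning back. Calculations ran in Python 3.11.15 (pandas 2.3.3, numpy 2.4.6, scipy 1.17.1, with matplotlib 3.10.9 for plots) and R 4.3.3.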

Additional observations from a re-analysis of the deposited data

How the results depend on the processing

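Under 6 other scalings and pseudocounts, the 732 log2 ratios recomputed for 122 named genes all kept their sign, and 19 of the 564 values of the 94 genes past 2-fold came under it, for SMAD6, GDF3, FGF19, FGF4, ETV5, RD3, TMEM132E-DT, DIO3OS, DLL3, MBNL2 and RNASEK-C17orf49, while EOMES came past it with TMM factors. The counts of genes depended more on the settings. The median log2 ratio of all compared genes was -0.0423, 0.0583 with TMM factors, 0.0425 with DESeq2 size factors and 0 with no minimum level. TMM factors gave 10 recovered genes and DESeq2 size factors 11 in place of 6, and 33 genes that turned back in place of 49 with either, all of them among the 49. The FPKM table gave 82 newly on, 308 newly off, 93 turned back and 32 recovered genes, of which 8 newly on, 14 newly off, 22 turned back and 4 recovered genes were shared with the sets above. The cutoffs set for CPM were used unchanged on FPKM, which also depends on gene length. These sets therefore differ in unit and threshold as well as in scaling. A minimum of 5 CPM gave 145 higher, 121 lower and 17 turned back, and no minimum 626, 1308 and 288, with 32 recovered. A pseudocount of 1 CPM gave 163 higher, 164 lower and 29 turned back. A fold of 3 gave 67, 78 and 12, with 1 recovered, and a fold of 1.5 gave 700, 1170 and 278, with 19 recovered. On at 2 CPM left 5 newly on and 11 newly off, and off at 0.2 CPM left 4 and 18. Without 1 of the 0 h replicates there were 30 to 31 newly on, 81 newly off, 55 to 70 turned back (70 without replicate 1) and 10 to 14 recovered (14 without replicate 1). Counting a return of more than the midpoint of the 0 to 4 h difference as turning back gave 119 genes, and 4 recovered. All alternatives were listed before the settings were run. No paired analysis was possible because 4 h and 12 h had 1 library each. Depth limits ratios with few counts, such as that of NECTIN4 with 3 counts at 4 h (95% interval 10.7 to 157).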
